A study of Mus musculus with 2 samples.

Results

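The Hippo pathway and its TEAD transcription factors are described here through open chromatin at 10 genes, Tead1, Tead2, Tead3, Tead4, Yap1, Wwtr1, Lats1, Lats2, Amotl2 and Vgll4, out of 21938 protein-coding genes of the GENCODE M21 annotation. The genes were chosen by name, and all 10 matched a symbol in the annotation. For each gene, promoter peaks were those within 500 bp of any annotated transcription start. Distal peaks were those more than 1000 bp from every start and within 100 kb of a start of the gene, with that gene as the nearest protein-coding one, and footprints inside both kinds were counted. The libraries were DNase-seq, which maps DNA that a nuclease cuts easily because nucleosomes are absent or loose. They came from whole urinary bladder of 4-day-old female B6CASTF1/J mice, the F1 hybrid of the C57BL/6J and CAST/EiJ strains, untreated as far as the labels say. There was 1 group with 2 biological replicates, from separately numbered females that carry the same donor identifier, and no control group. The height of a peak is the signal the authors deposited, on a scale the sources used here do not state.

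Hippo signalling is a kinase cascade that limits organ growth. The LATS kinases phosphorylate the coactivators YAP (from Yap1) and TAZ (from Wwtr1), which keeps them out of the nucleus. Unphosphorylated YAP and TAZ bind TEAD proteins, which hold the DNA contact, and switch on genes for growth, adhesion and matrix. VGLL4 competes with YAP for TEAD, and AMOTL2 belongs to the angiomotin family that holds YAP in the cytoplasm. LATS2 and AMOTL2 are also known as targets of YAP, which makes them part of a feedback loop.

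The looser peak lists, used unless stated, held 96518 peaks in replicate 1 and 122870 in replicate 2. All heights were whole multiples of 1 step within a tolerance of 0.02 steps. If 1 step is 1 count scaled by depth, the steps put the relative depth of replicate 2 at 1.12 times that of replicate 1. That reading of a step is assumed here, since the scale is not stated. Over 53490 regions with a peak in both replicates, the median log2 ratio of replicate 2 over replicate 1 was -0.28, so heights ran lower in replicate 2. Of the markers used to check the tissue, 7 of 8 smooth muscle genes, 3 of 8 urothelium genes and none of 6 hepatocyte genes were open at a promoter in each replicate. The share over all protein-coding genes was 62.3%. The urothelium set, at 37.5%, fell below that share, so it does not bear out the tissue.

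In each replicate a promoter peak was listed for every one of the 10 Hippo and TEAD genes, while 62.3% of all protein-coding genes were open at a promoter in both. In the stricter lists 9 of the 10 did, against 55% of all genes, and the exception was Tead4, whose stricter peak appeared in replicate 1 alone. The tallest promoter peak of each gene, averaged over the replicates, ran from 0.919 at Tead4 to 5.30 at Tead1, with a median of 2.49 over the 10 genes and 2.23 over the 13670 genes open in both replicates. The tissue was measured whole, so a site open in few cells and a site opened less in each cell cannot be told apart. In the order of mean heights, 7 of the 9 neighbouring pairs had overlapping replicate ranges. The pairs that did not overlap were Tead3 above Tead2, and Tead2 above Tead4. Overlap of ranges sets aside the pairing of heights within a replicate. Tead1 stood above Vgll4, Vgll4 above Yap1, and Lats2 above Lats1 in each replicate. The remaining overlapping pairs changed order between the replicates. With 1 group there was no test between conditions.

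**Figure D1:**
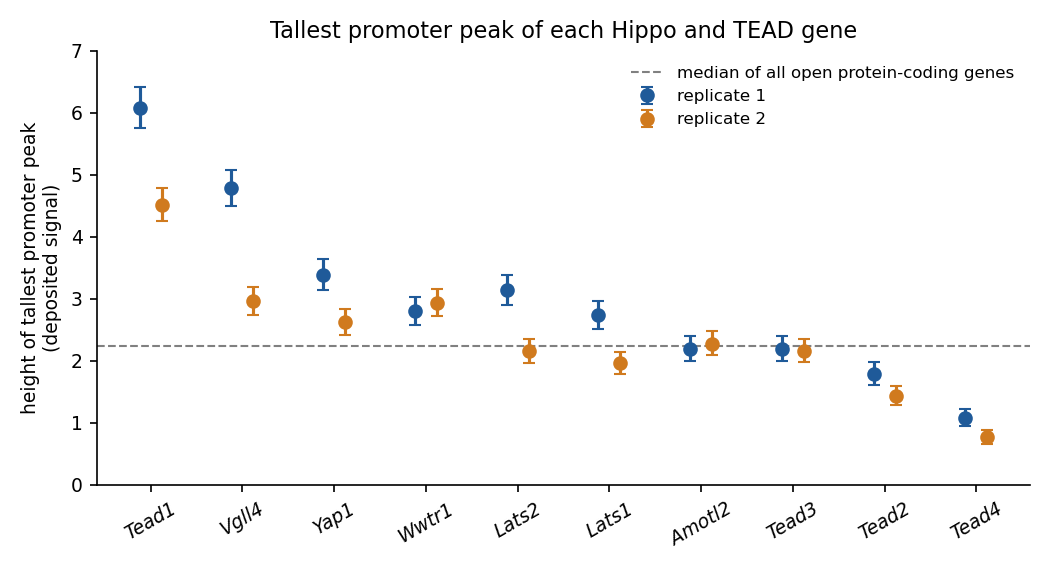
Height of the tallest promoter peak of each Hippo and TEAD gene in each replicate, in deposited signal units, with genes in the order of their mean. Bars are 95% exact Poisson intervals of the counted steps, and the dashed line is the median of all open genes, 2.23. Tead1 stands highest at 6.08 and 4.52, and Tead4 lowest at 1.08 and 0.763.

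The 4 TEAD genes, which encode the DNA-binding factors of the pathway, covered nearly the whole range. Tead1 (chr7:112679318-112906807, plus strand, GRCm38) had the tallest promoter peak of the 10 genes, at 6.08 in replicate 1 and 4.52 in replicate 2. The 95% exact Poisson intervals, which cover counting error only, were 5.76 to 6.42 in replicate 1 and 4.25 to 4.79 in replicate 2. The mean was 5.30 ± 1.11 (SD, n = 2), and 93.7% of the open genes had a lower mean. Tead3 (chr17:28331671-28350817, minus strand) followed at 2.19 and 2.16 in replicates 1 and 2, a mean of 2.17 ± 0.0266, with 48.9% of the open genes lower. Its replicates were the most alike of the 10 genes. Tead2 (chr7:45215753-45233644, plus strand) gave 1.79 and 1.43, a mean of 1.61 ± 0.253 (n = 2). Tead4 (chr6:128224288-128300823, minus strand) gave 1.08 and 0.763, a mean of 0.919 ± 0.221 (n = 2), and 17.9% of the open genes were lower. Both replicates therefore placed the TEAD promoters in the order Tead1, Tead3, Tead2, Tead4.

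YAP and TAZ are the coactivators that carry the signal to TEAD. The Yap1 promoter (gene at chr9:7931999-8004596, minus strand) reached 3.39 in replicate 1 and 2.62 in replicate 2, a mean of 3.004 ± 0.546 (n = 2). The Wwtr1 promoter (gene at chr3:57455649-57575910, minus strand) reached 2.80 and 2.94, a mean of 2.87 ± 0.0996 (n = 2). Their replicate ranges overlapped, so the heights of the coactivator promoters did not differ beyond their spread. Of all open genes, 65.7% were lower than Yap1 and 63.1% lower than Wwtr1. The Yap1 peak is also within reach of the start of the long non-coding RNA Gm45494.

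The LATS kinases phosphorylate YAP and TAZ. Lats2 (chr14:57689662-57758388, minus strand) had 3.13 in replicate 1 and 2.15 in replicate 2, a mean of 2.64 ± 0.695 (n = 2). Lats1 (chr10:7681214-7716460, plus strand) had 2.73 and 1.96, a mean of 2.35 ± 0.547 (n = 2). The ranges of the kinase promoters overlapped, though Lats2 was the higher within each replicate. Neither peak belongs to its gene alone: the Lats1 peak is shared with the divergent gene Pcmt1, a repair enzyme for damaged proteins, and the Lats2 peak with the annotated gene Gm49361.

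Among the regulators, Vgll4 (chr6:114860628-114969994, minus strand), which competes for TEAD, had the second tallest promoter peak of the set, at 4.78 in replicate 1 and 2.96 in replicate 2, a mean of 3.87 ± 1.29 (n = 2). The annotated start beside this peak, at position 114875107, is not that of a protein-coding transcript. With starts of protein-coding transcripts alone, the tallest Vgll4 peak averaged 1.75 ± 0.420. Amotl2 (chr9:102716672-102733418, plus strand), the angiomotin family member, had 2.19 and 2.28, a mean of 2.23 ± 0.0622 (n = 2). The upstream part of the tall Vgll4 site is shown because that site decides the rank of the gene. Capitals mark bases under footprints of both replicates, which are short protected stretches inside a peak, and only footprints overlapping by at least 5 bases between replicates are marked. The sequence is the minus strand of the C57BL/6J reference, and the CAST/EiJ allele was not used here.
Vgll4 promoter chr6:114875108-114875240: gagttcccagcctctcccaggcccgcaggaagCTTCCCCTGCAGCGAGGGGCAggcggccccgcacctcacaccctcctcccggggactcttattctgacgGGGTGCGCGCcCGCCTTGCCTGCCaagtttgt
The printed stretch held no match to the TEAD letters GGAATG and 1 match to the NFI letters TTGGCA.

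Replicate 2 was lower than replicate 1 at 8 of the 10 genes. The log2 ratio of replicate 2 over replicate 1 had a median of -0.40 over the 10 genes, against -0.28 over all shared regions. The latter mix promoter and distal regions, and the assigned distal ones alone had a median of -0.21. No ratio over all promoters is given here, so the 10 genes cannot be called lower than other promoters. Over the 10 genes the ratio ran from -0.69 at Vgll4 to 0.07 at Wwtr1, and Amotl2, at 0.06, was the other gene above 0.

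All 10 genes also had footprints inside their promoter peaks in both replicates, as did 96.4% of the genes open in both. The 10 genes held 99 promoter footprints in replicate 1 and 83 in replicate 2. Vgll4 had the most over both replicates, 17 in each. Tead3 differed most between replicates, with 22 in replicate 1 and 5 in replicate 2, at nearly equal peak heights. The sequence covered was not equal, with 3 promoter peaks in replicate 1 and 2 in replicate 2. Its tallest peak was 640 bp wide with 10 footprints in replicate 1, and 240 bp wide with 5 in replicate 2. Tead4 had the fewest, 4 in replicate 1 and 3 in replicate 2.

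Most of these genes have several annotated starts. Starts within 500 bp of each other were joined, which gave 42 groups, and 18 of these had a peak in both replicates. No share over all genes is given here to set beside this count. Nearby groups can share a peak, as the open groups of Amotl2 did in replicate 1. Vgll4 had 4 of 5 groups open, Yap1 had 3 of 4, and Tead4 had both of its 2. Wwtr1 had its single group open and Lats1 had 1 of 2. Tead1 had 1 of 5 groups open, Tead2 had 2 of 9, Tead3 had 1 of 3, Lats2 had 1 of 5 and Amotl2 had 2 of 6.

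**Figure D2:**
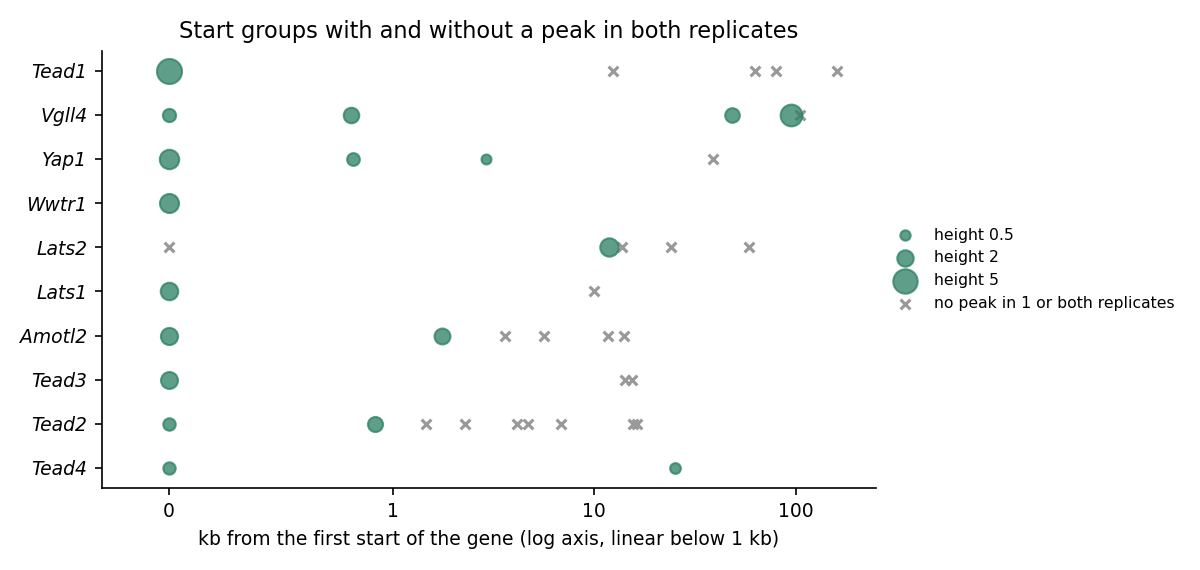
Distance of each group of annotated starts from the first start of its gene, in kb along the gene on a log axis that is linear below 1 kb. Filled circles are groups with a peak in both replicates, sized by mean height, and crosses are groups without one in at least 1 replicate. The open group of Lats2 lies 11810 bp inside the gene, and the tallest of Vgll4 lies 94887 bp inside.

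The most upstream group of joined starts was not the tallest at 3 genes. At Lats2 the first group, at position 57758388, had no peak in either replicate, and the open group lay 11810 bp further along the gene. At Tead2 the first group gave 0.964 in replicate 1 and 0.938 in replicate 2, a mean of 0.951 ± 0.0182, below the group 920 bp further on that held the tallest peak. At Vgll4 the first group gave 1.24 and 1.02, a mean of 1.13 ± 0.156 (n = 2). The next groups of Vgll4, 814 bp and 48173 bp along, averaged 1.75 ± 0.420 and 1.49 ± 0.107. Every open group upstream of the tall Vgll4 site was thus lower than that site, 94887 bp from the first start, in both replicates.

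At the other genes the first group held the tallest peak. At Amotl2 that peak lay nearest to the start at position 102717668 rather than to the most upstream start of the group, at 102716672. The second group of Tead4, 25246 bp along the gene, gave 0.517 in replicate 1 and 0.646 in replicate 2, a mean of 0.582 ± 0.0915. Yap1 had lower peaks 821 bp and 2893 bp along, at 1.17 and 0.859 for the nearer one, and 0.433 and 0.434 for the farther one. At Tead1 a group 12380 bp inside the gene had a peak in replicate 2 alone, of height 0.563.

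Away from starts, the 10 genes had 34 distal regions with a peak in both replicates, and 7 of the 10 genes had at least 1, against 43.7% of all protein-coding genes. The median was 3 regions per gene and the mean 3.4, against 0 and 1.18 over all genes. Tead1 had 11 regions, more than 98.8% of all genes. A region was given to the gene with the nearest of any start. The counts were not adjusted for gene length or for the spread of starts. The start groups of Tead1 reach 160316 bp from its first start, the farthest of the 10 genes. The part of length and spread in the counts was not tested. Vgll4 had 6, Tead4 and Amotl2 had 4 each, and Tead3, Yap1 and Lats2 had 3 each. Tead2, Wwtr1 and Lats1 had none, so members of the same subfamily (the TEAD factors, the coactivators and the kinases) differed in this count. The counts rested on which lists were used. Replicate 2 alone gave 15 distal peaks for Yap1, 14 for Tead1 and 12 for Lats2, and replicate 1 alone gave 4 for Yap1, 14 for Tead1 and 5 for Lats2. Amotl2 and Vgll4 had 10 each, Tead3 had 6 and Wwtr1 had 2 in replicate 1 alone. In the stricter lists Tead1 had 4 shared regions, Vgll4 had 3, Yap1 and Amotl2 had 2 each, Tead3, Tead4 and Lats2 had 1 each, and Tead2, Wwtr1 and Lats1 had none.

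**Figure D3:**
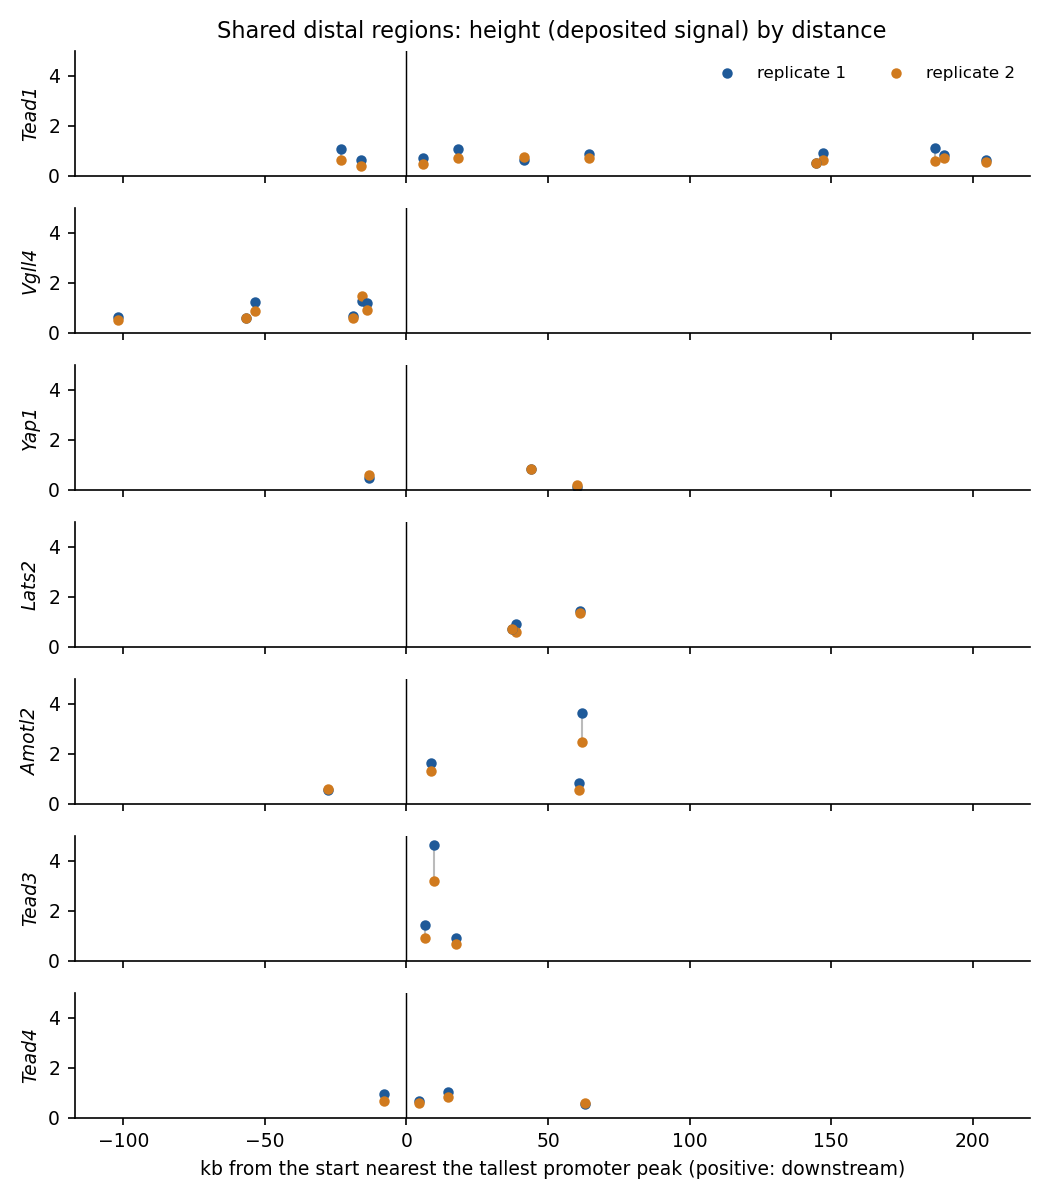
Height of each shared distal region in each replicate, in deposited signal units, against its distance in kb from the start beside the tallest promoter peak, for the 7 genes with such a region, with a line joining the replicates of a region. Tead1 has the most, 11, with means between 0.510 and 0.896, and the tallest region, at 4.66 and 3.18, is in a Tead3 intron.

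Of the 34 regions, 30 lay in introns and 4 between genes, 11 upstream and 23 downstream of the tallest start of their gene. No shares over all distal regions are given here to set beside these counts, so they show no bias particular to these genes. The 11 include all 6 regions of Vgll4, whose tallest start lies 94887 bp inside the gene. Of those 6, 5 lay in its introns, downstream of its first start. The median height of the 34 regions was 0.765, against 0.670 over all 25833 shared distal regions assigned to a gene. Their median width was 200.5 bp, against 200 bp. In 24 of the 34, at least 1 footprint of one replicate overlapped a footprint of the other, as in 63.7% of all such regions. The height was greater in replicate 1 at 26 regions and in replicate 2 at 8, and 68.4% of all were greater in replicate 1.

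At Tead3 and Amotl2 a distal region stood taller than the promoter in both replicates. The Tead3 region, in an intron 9.56 kb downstream of the start, reached 4.66 in replicate 1 and 3.18 in replicate 2, a mean of 3.92 ± 1.04 (n = 2), against 2.17 at the promoter. Of all shared distal regions, 99.4% were lower. The Amotl2 region, 62.1 kb downstream of the promoter and in an intron of Gm47416, reached 3.64 and 2.46, a mean of 3.05 ± 0.832 (n = 2), against 2.23 at the promoter. Of all shared distal regions, 98.4% were lower. In replicate 2 the Tead3 region stood above its promoter by a narrower margin than in replicate 1, at 3.18 against 2.16. The margin of the Amotl2 region was small in replicate 2, at 2.46 against 2.28. That region height lay inside the exact Poisson interval of the Amotl2 promoter in replicate 2, 2.09 to 2.48. In replicate 2 the Amotl2 region was therefore not taller than its promoter beyond counting error. At Tead4 the tallest distal region, chr6:128285841-128286080, averaged 0.922 ± 0.131 and the promoter 0.919 ± 0.221 (n = 2 each), so the 2 did not differ beyond their spread.

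The Tead3 and Amotl2 regions are printed, and with them a lower Tead4 region that held the only distal TEAD motif of the set under footprints of both replicates. A motif is called under a footprint where at least 1 of its bases overlaps one. In the Tead3 sequence, capitals mark footprints of both replicates. In the Tead4 and Amotl2 sequences, capitals mark the core of the TEAD motif, GGAATG on either strand, so that CATTCC is the same motif read on the other strand. Tead3 and Tead4 are printed on the minus strand and Amotl2 on the plus strand, all from GRCm38.
Tead3 distal chr17:28341161-28341348: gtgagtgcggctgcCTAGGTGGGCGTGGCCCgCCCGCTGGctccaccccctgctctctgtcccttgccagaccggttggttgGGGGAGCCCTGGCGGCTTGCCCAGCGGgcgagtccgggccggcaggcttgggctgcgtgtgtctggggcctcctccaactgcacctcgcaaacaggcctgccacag
Tead4 distal chr6:128296252-128296416: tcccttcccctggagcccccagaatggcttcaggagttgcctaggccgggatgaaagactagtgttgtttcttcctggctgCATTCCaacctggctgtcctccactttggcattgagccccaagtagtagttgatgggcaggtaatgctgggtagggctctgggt
Amotl2 distal chr9:102779621-102779840: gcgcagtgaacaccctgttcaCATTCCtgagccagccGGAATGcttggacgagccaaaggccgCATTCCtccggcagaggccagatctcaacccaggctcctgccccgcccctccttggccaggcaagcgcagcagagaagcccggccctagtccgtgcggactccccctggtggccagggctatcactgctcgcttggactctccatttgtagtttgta
The Tead3 stretch held no TEAD match and 1 GC box (GGGCGG, the motif of SP and KLF factors), of which 6 bases were covered by footprints in replicate 1 and 5 in replicate 2. The Tead4 region, 4.41 kb downstream of the start, was of middling height, 0.684 in replicate 1 and 0.596 in replicate 2, a mean of 0.640 ± 0.0624, and all 6 bases of its TEAD match were covered in both replicates. The Amotl2 region held 3 TEAD matches, the most of any of the 34 regions. Of these, 1 lay under a footprint, in replicate 1 alone, which covered 3 of its 6 bases. The same region held 1 GC box, and footprints of each replicate covered all 6 of its bases.

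The tallest distal regions of the other genes were lower than these of Tead3 and Amotl2. The Lats2 region chr14:57684681-57684880, in an intron of Gm49361, gave 1.43 in replicate 1 and 1.33 in replicate 2, and 84.6% of all distal regions were lower. The Vgll4 region chr6:114890801-114891020 gave 1.27 and 1.46, a mean of 1.37, and 84.2% were lower. The tallest of the 11 Tead1 regions, chr7:112697461-112697760, gave 1.08 and 0.717, a mean of 0.896, and 66.7% were lower. Tead1 therefore combined the tallest promoter with many distal regions of modest height. The tallest Yap1 region averaged 0.836, with 63.0% of all distal regions lower, and 68.2% were lower than the tallest Tead4 region. All but 2 of the Tead1 regions lay inside Tead1, and those 2 were upstream in introns of 2310014F06Rik.

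Wwtr1 had no shared distal region under the rule, but its body was not closed. The introns of Wwtr1 held 2 shared regions more than 100 kb from its start, which the rule gave to the neighbouring gene Tm4sf4, a membrane protein of the tetraspanin-like L6 family. The first, chr3:57470323-57470500, gave 0.559 and 0.496 in replicates 1 and 2. The second, chr3:57470961-57471260, gave 0.680 and 0.600. They were looked up after the count for Wwtr1 was known.

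Distal peaks found in a single replicate had a lower median height than shared ones, but the ranges overlapped. Replicate 1 had 18 such peaks, of median height 0.566, against 0.824 for the 37 peaks of replicate 1 in shared regions. Replicate 2 had 25, of median height 0.200, against 0.619 for its 36 peaks in shared regions. In replicate 1 the single-replicate peaks ran from 0.158 to 0.941 and the shared ones from 0.107 to 4.66. In replicate 2 they ran from 0.0834 to 0.767 and from 0.179 to 3.18. Yap1 and Lats2 gave 20 of the 25 single-replicate peaks of replicate 2: Yap1 had 12, from 0.0834 to 0.396, and Lats2 had 8, from 0.0876 to 0.275. The 8 of Lats2 all lay between positions 57691861 and 57696480, near the end of the gene.

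The TEAD motif GGAATG was looked for in the regions of the TEAD genes and their partners. It was present in 8 of the 34 distal regions, 23.5% (95% exact binomial interval 10.7% to 41.2%), against 14.4% of all shared distal regions. The background lies inside that interval. Tead1 had 3 of the 8 regions with a match, Tead4 and Vgll4 had 2 each and Amotl2 had 1. A match under footprints of both replicates occurred in 1 of the 34, 2.94% (0.0744% to 15.3%), against 1.19% of all. Regions of a gene share its surroundings and these intervals cover counting error only.

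**Figure D4:**
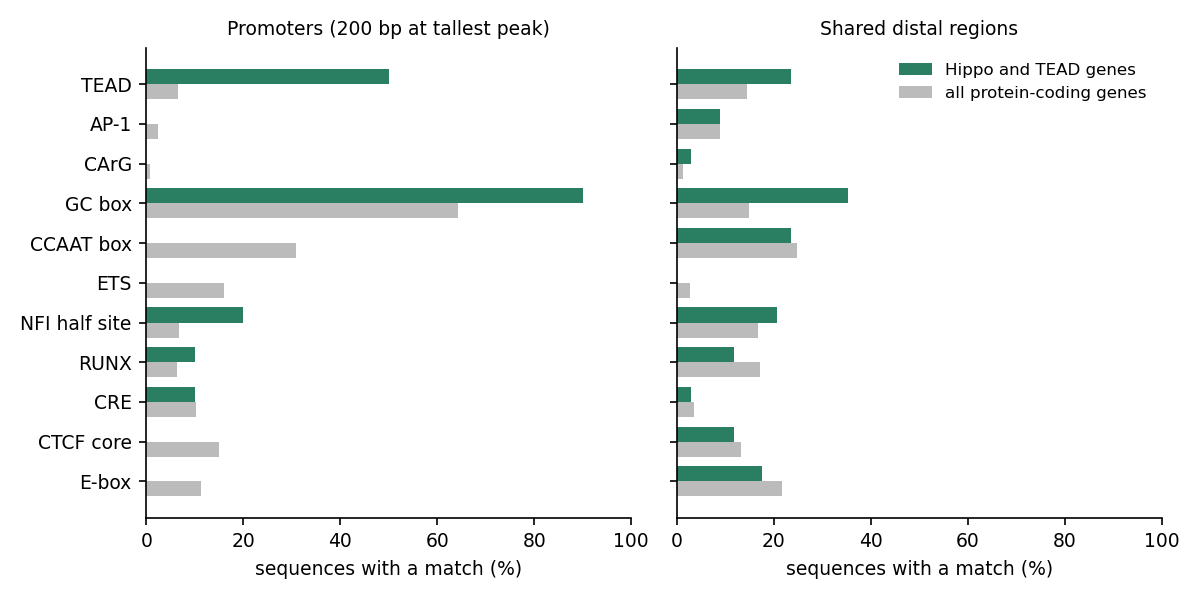
Percent of 200 bp promoter windows (left) and of shared distal regions (right) with each motif, for the Hippo and TEAD genes and for all genes. The TEAD motif was in 23.5% of the 34 distal regions of the Hippo and TEAD genes and 14.4% of all, and the GC box in 35.3% and 15.0%.

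Other motifs were read the same way, on both strands. The GC box was in 12 of the 34 regions, 35.3%, against 15.0% of all, and under footprints of both replicates in 8, 23.5% against 5.09%. The median GC content was 55.5% over the 34 regions and 53.5% over all, and its part in the GC box share was not tested. AP-1 (TGANTCA) was in 8.82% against 8.89% of all, the CCAAT box (CCAAT) in 23.5% against 24.8%, and the E-box (CAGCTG) in 17.6% against 21.6%. The letters AGGGGGC of the CTCF core were in 4 regions, 11.8% against 13.3%, and under footprints of both replicates in the same 4, 11.8% against 8.85%. Near matches were not counted for any motif. The Amotl2 region printed above, for example, holds AGGGGGA on the minus strand and is not among these 4.

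At promoters, the 200 bp around the tallest peak held a TEAD match at 5 of the 10 genes, Tead1, Tead3, Yap1, Lats2 and Amotl2, against 6.45% of all open genes. These genes include Tead1 and Tead3 of the TEAD factors, a coactivator, a kinase and a regulator. The width was chosen after the data had been seen. With 100 bp the count was 2 (Tead3 and Lats2), against 3.28% of all, and with 400 bp it was 7, with Tead4 and Wwtr1 added, against 13.2%. With starts of protein-coding transcripts alone it was 6, with Vgll4 added to the first 5, against 6.34%. The longer letters TGGAATG, in the 200 bp windows, matched at 1 of the 10 genes, Lats2, against 1.30% of all. The sites are printed with the motif in capitals, 30 bases each on the strand that reads GGAATG, which is the minus strand of GRCm38 in every case.
Tead1 chr7:112679343-112679372: cgaagaatgtgcGGAATGaggacaggaatg
Yap1 chr9:8004720-8004749: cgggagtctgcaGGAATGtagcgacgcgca
Lats2 chr14:57746102-57746131: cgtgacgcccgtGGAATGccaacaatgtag
Amotl2 chr9:102717727-102717756: gctgctatgccaGGAATGtgagagtttcag
Tead3 chr17:28350970-28350999: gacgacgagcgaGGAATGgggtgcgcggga
The Tead1 site, 40 bp downstream of the start, was the only one of the 5 to touch footprints of both replicates, which covered 1 of its 6 bases. A further Tead1 match 28 bp downstream of the start carried no footprint. The Tead3 site, at -168 bp from the start, lay partly under a footprint of replicate 2 alone, which covered 3 of its 6 bases, and those of Yap1, Lats2 and Amotl2 lay under none. Of the other motifs in these windows, the GC box was found at 9 of the 10 genes, against 64.3% of all open genes. No window held a CCAAT box, an ETS motif (CCGGAAG), the CTCF letters or the E-box, against 30.8%, 15.9%, 15.0% and 11.3% of all. The windows had a median GC content of 70.25%, against 66% over all open genes.

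The wider pathway was read from a list of 33 other genes, which holds the upstream kinases, scaffolds, polarity proteins and phosphatases, and from a list of 22 known YAP and TAZ targets. Of the pathway genes, 30 of 33 were open at a promoter in both replicates (90.9%), against 62.3% of all protein-coding genes. Their median height was 2.70. The tallest were Taok3 (6.20 ± 1.54), a kinase that acts on the MST kinases, Csnk1d (5.97 ± 1.80), a casein kinase, Stk4 (4.87 ± 0.710), which encodes MST1, Mob1b (4.59 ± 1.22), a LATS cofactor, and Scrib (4.45 ± 1.30), a polarity scaffold. Crb3 and Vgll1 were open at a promoter in replicate 1 alone, of heights 0.736 and 0.270, and Vgll2 had none in either.

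**Figure D5:**
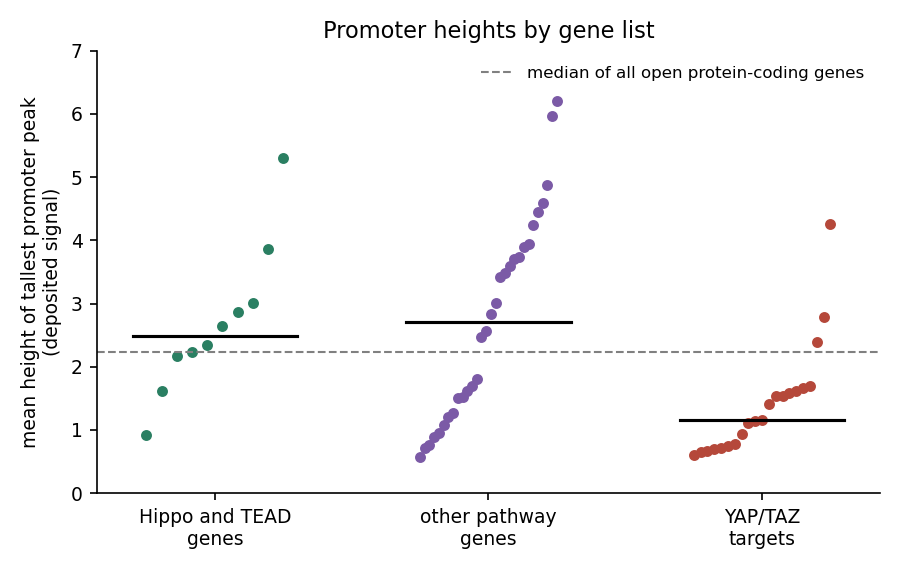
Mean height of the tallest promoter peak of each gene open in both replicates, in deposited signal units, for the Hippo and TEAD genes, the other pathway genes and the YAP and TAZ targets. Points are genes in the order of their height, and the solid lines mark the medians of 2.49, 2.70 and 1.16, beside the dashed line at 2.23 for all open genes.

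Of the target genes, 21 of 22 were open in both replicates (95.5%), against 62.3% of all protein-coding genes. Their median height was 1.16, below the 2.49 of the 10 Hippo and TEAD genes and the 2.23 of all open genes. The tallest were Birc5 (4.25 ± 0.786), a regulator of cell division and survival, Gadd45a (2.78 ± 0.612), a stress response gene, Arhgef17 (2.39 ± 0.354), Ptpn14 (1.70 ± 0.226), a phosphatase that is also in the pathway list, and F3 (1.66 ± 0.170), tissue factor. Ankrd1, the cardiac ankyrin repeat protein often used as a YAP readout, had no promoter peak in either replicate. The targets had 66 shared distal regions in 20 genes, with a median of 3 per gene, the same median as the 10 Hippo and TEAD genes. The pathway genes had 72 in 19 of the 33 genes, and 30 of the 72 belonged to Wwc2, a scaffold of the KIBRA family. At least 1 shared distal region was found for 43.7% of all protein-coding genes.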

How the data were processed

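DNase-seq libraries from 2 bladder samples in 1 group were analysed, with positions on assembly mm10 (GRCm38). The authors deposited, for each sample, a looser and a stricter peak list whose signal column gives the peak height, a list of footprints, and a list of p-values that are false discovery rates (q-values) up to 0.05. The p-value column of the deposited footprint lists is 0.01 throughout, so footprints were not ranked. Which aligner and callers were run, their versions and the scale of the signal: not given in the sources used here. Total depth is unknown.

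Peaks overlapping by at least 1 bp between replicates were merged into shared regions, whose height in a replicate is that of the tallest peak. Motifs were counted as exact letters on both strands. A height interval is the exact Poisson interval of its number of steps, which assumes that 1 step is 1 count. It takes no account of the choice of the tallest peak. No test was made, since there is 1 group. Python 3.11.15, numpy 2.4.6, scipy 1.17.1 and matplotlib 3.10.9 were used, and the counting was tested on simulated data. Genes, lists and motifs were chosen with earlier results of these data known. Named are the 10 genes, from each list the 5 tallest promoters and those without a peak in both replicates, and per gene the tallest distal region and any with a TEAD motif under footprints of both replicates. Other features named were chosen after their values were seen. Alternatives were the stricter list, 1 replicate left out, and other windows, distances, overlaps and height measures. Some sequence is not reported here.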

Additional observations from a re-analysis of the deposited data

How the results depend on the processing

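Of 110 values recomputed with both replicates kept, 90 stayed within their limits. The values are counts, heights and shares, which have no direction to reverse. That tally does not measure how firm the results are. With the stricter lists or a 1000 bp promoter window, every recomputed height equalled its main value, because the same peak was read again. With starts of protein-coding transcripts alone, every height but that of Vgll4 did so too. The limits of the TEAD share of distal regions were wide: 11.8% with TGGAATG, against 23.5%, stayed within them. The 34 shared distal regions became 14 in the stricter lists, and with 1 replicate left out the count was 55 to 61 regions, because a region then needs 1 peak only. The share of distal regions with a TEAD motif under footprints of both replicates was 2.94% and became 0% in the stricter lists, where it was 0 of 14. The number of promoters with a TEAD match, 5 of 10, was 2 with a window of 100 bp, an alternative added after the data were seen, and the cause was not tested. Leaving out a replicate could not change the count of 10 genes with a promoter peak or move a height past the replicate SD, so it tests neither. Of 39 promoter heights recomputed with both replicates, 10 moved by more than the replicate SD, 9 of them when all peaks of a promoter were summed. Of 40 counts of distal regions per gene with both replicates, 7 moved, and of 20 with 1 replicate left out, 7 moved, among them Yap1 (3 regions) with 15 in replicate 2 alone. No paired comparison of conditions was possible because there is 1 group. Depth is only inferred, from the height steps and between the replicates, so a missing peak may be one below the list's threshold.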
